A study of Mus musculus with 9 samples.

Results

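The genes described here build or anchor the junctions between neighbouring cells. They are the claudins, occludin and the zonula occludens scaffolds of tight junctions, the connexins of gap junctions, the classical and related cadherins, and the cadherins and plaque proteins of desmosomes. They were chosen by gene symbol alone, as Cldn, Tjp, Gja, Gjb, Gjc, Cdh, Dsg and Dsc genes with a number together with Ocln, Dsp and Jup. Probe sets annotated with exactly 1 such symbol were kept, and the endothelial and alveolar genes Cldn5, Cldn18 and Cdh5 were left out. This gave 52 genes of 12393 on the array, read by 78 probe sets.

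Lung RNA of adult FVB/N mice was hybridised to 9 expression arrays, 3 for each of 3 genotypes, in a study of what extra normal human CFTR does to lung mRNA levels. CFTR is an anion channel of epithelial cells, and its loss causes cystic fibrosis. Mice homozygous for the transgene (HO, SP-C-hCFTR+|+) carried 2 alleles of a normal human CFTR cDNA driven by the promoter of Sftpc, the surfactant protein C gene, and heterozygous mice (HE, SP-C-hCFTR+|-) carried 1. Wild-type mice (WT) carried none, and all groups kept the normal mouse Cftr gene (mCftr+|+), although the label of WT array 3 has no genotype entry. The Sftpc promoter restricts the transgene to respiratory epithelium, whereas the lung RNA also held markers of vessel, muscle and immune cells. One label of HO array 2 writes a single transgene allele where its title and genotype entry give it as homozygous, and it was kept as HO. The labels do not say whether the 3 arrays of a genotype came from separate animals, so the p-values below measure only the spread between these samples, which may be technical.

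Tight junctions close the space between epithelial cells at their apical edge, and the claudins in them set which ions and water can pass between cells. Adherens junctions and desmosomes hold neighbouring cells together through cadherins tied to actin or to keratin filaments, and gap junctions, made of connexins, let small molecules and ions pass from one cell to the next. In the lung, such contacts seal the alveolar and airway epithelium against fluid, and different connexins and cadherins join the cells of vessel walls, the mesenchyme and the pleural lining.

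Promoter sequence is shown for the 5 tight junction genes that had both an unadjusted p under 0.05 in limma for the replicate number in the array titles and an entry in the promoter table. The 4 claudins among them were highest on the arrays numbered 1 and occludin on those numbered 2. The windows run 5' to 3' on the strand of the gene, from 250 bases before the annotated start to 50 bases after it, and come from RefSeq in build GRCm38.p6. Capitals mark CACCTG on either strand (read as CAGGTG on the other), the E-box that the Snail and Zeb repressors of epithelial genes are known to bind. The Cldn3 window is chr5:134985964-134986263 on the plus strand. The Cldn7 window is that of its second annotated start, chr11:69965171-69965470 on the plus strand. The Cldn1 window is chr16:26371790-26372089 on the minus strand. The Cldn15 window is chr5:136967619-136967918 on the plus strand. The Ocln window is that of its second annotated start, chr13:100552449-100552748 on the minus strand.
Cldn3: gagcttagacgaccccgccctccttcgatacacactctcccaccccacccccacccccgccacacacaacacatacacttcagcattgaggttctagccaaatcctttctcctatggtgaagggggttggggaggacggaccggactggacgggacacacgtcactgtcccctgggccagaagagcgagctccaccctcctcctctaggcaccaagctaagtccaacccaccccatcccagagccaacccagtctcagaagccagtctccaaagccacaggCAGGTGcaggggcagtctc
Cldn7: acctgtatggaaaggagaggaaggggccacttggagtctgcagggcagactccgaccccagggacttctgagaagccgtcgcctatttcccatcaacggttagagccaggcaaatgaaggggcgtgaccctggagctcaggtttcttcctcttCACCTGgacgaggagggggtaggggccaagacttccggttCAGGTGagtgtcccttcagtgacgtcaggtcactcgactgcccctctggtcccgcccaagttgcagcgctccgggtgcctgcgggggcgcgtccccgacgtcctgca
Cldn1: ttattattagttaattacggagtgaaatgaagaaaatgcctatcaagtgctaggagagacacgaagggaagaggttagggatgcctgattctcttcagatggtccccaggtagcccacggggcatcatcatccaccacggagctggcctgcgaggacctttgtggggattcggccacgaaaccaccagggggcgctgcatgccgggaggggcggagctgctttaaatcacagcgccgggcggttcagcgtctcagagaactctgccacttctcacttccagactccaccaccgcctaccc
Cldn15: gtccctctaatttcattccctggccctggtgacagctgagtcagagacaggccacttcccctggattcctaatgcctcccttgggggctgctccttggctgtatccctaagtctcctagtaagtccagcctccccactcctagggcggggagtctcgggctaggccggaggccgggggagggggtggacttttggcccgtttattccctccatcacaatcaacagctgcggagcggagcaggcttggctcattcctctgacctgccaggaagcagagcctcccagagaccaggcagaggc
Ocln: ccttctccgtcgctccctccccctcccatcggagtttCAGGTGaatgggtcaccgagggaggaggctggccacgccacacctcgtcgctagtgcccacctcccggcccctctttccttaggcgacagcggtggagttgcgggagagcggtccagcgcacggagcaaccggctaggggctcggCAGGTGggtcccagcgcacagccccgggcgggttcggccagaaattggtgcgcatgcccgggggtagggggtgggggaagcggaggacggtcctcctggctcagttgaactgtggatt
The Cldn3 window holds 1 E-box, 32 bases after the start, the Cldn7 window 2, at 97 and 57 bases before the start, and the Ocln window 2, at 213 and 68 bases before the start. The Cldn1 and Cldn15 windows and that of the other Cldn7 start hold none. That of the other Ocln start holds 1, at 8 bases after that start. For Cldn7 and Ocln, the window shown is thus the one with more E-boxes. Among the 20 genes tested below, 13 had an entry in the promoter table, with 17 windows in all, and 8 of these held the E-box, against 6640 of all 32851 promoters (20.2%). The 8 were 1 window each of Cldn3, Cldn7, Dsp and Gjb6 and 2 each of Ocln and Tjp3. The 2 Ocln windows overlap and share 1 E-box, so the windows are not independent. Among claudin promoters the count was 2 of 7. The grainyhead-like motif AACCNGTT, searched on both strands, was in 1 of the 17 windows (that of Gjb6) and in 2.09% of all promoters. A match describes the letters in the window and shows no binding.

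Each value below is a probe set's signal intensity on a linear scale. The arrays had been scaled to a common trimmed mean of 1500, and their median intensities ran from 698 to 743.1. Between 4.26% and 5.48% of probe sets on an array lay at or below an intensity of 25.5, which was used as a floor. No 2 arrays were copies of each other, since the smallest median absolute log2 difference among the 36 array pairs was 0.145. The number of arrays, 3 a genotype, limits the precision. The log2 difference of the mouse Cftr probe set that passed the filter was 0.03 for HO and 0.04 for HE against WT, and the labels do not say whether its probes also read the human cDNA, so the transgene itself was not analysed here. Alveolar markers of the lung were bright on all arrays: the Sftpc probe set that passed the filter read between 50229.3 and 68142.2, and a second, dim one between 86.4 and 242.1.

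Of the 78 probe sets, 31 passed the filter on dim signals (a mean log2 intensity of at least 8.90, about 477 on the linear scale). They read 20 of the 52 genes: 6 claudins, Ocln, Tjp1 and Tjp3, 4 connexins, 4 cadherins, and Dsg2, Dsp and Jup. The filter used the mean over all 9 arrays, whatever the genotype. The other 32 genes were read only by dim probe sets, and 12 of the 47 dim probe sets had a value at the floor. In the plot of intensities by array, Tjp1 was among the brightest probe sets and Cldn1 among the dimmest, and the 3 genotypes overlapped for nearly every gene.

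No junction or cadherin gene passed an adjusted p of 0.05 between genotypes in limma, whose fit covered all 13576 probe sets above the filter, 0% of which passed. In HO against WT lungs, 2 of the 31 probe sets had an unadjusted p under 0.05, both lower in HO, those of Cdh1 and Dsg2, against 4.49% of all probe sets (2.81% with HO lower). The lowest adjusted p of the 31 was 0.992 in limma. With the replicate number as a block, which pairs the HO and WT arrays, the count was 4 of 31 (Cdh1, Dsg2, Cldn8 and 1 probe set of Gja1), against 5.95% of all probe sets, with a lowest adjusted p of 0.826. The count in HO against WT was 0 without WT array 2, 1 without HO array 2 and 4 without WT array 1. In HE against WT lungs 0 of 31 had an unadjusted p under 0.05 in limma, against 3.11% of all. Between HO and HE lungs 1 of 31 did, that of Dsg2, against 2.56% of all. A moderated F test over the 3 genotypes called 1 of 31 at that p, against 3.09% of all. With both transgenic groups pooled against WT the count was 0 of 31, against 4.19%, again with 0 past the adjusted threshold. HO and HE were set against the same 3 WT arrays, so these comparisons are not independent.

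The median log2 difference over the 31 probe sets was -0.05 for HO against WT and -0.06 for HE against WT, beside -0.005 and -0.007 over all probe sets tested. In HO against WT, 19 of 31 lay lower (61.3%, against 51.2% of all), and in HE against WT 20 of 31 (64.5%, against 52.2%). The 31 probe sets read 20 genes and are not independent. All 6 probe sets of Gja1 were among the 19 lower in HO, and 3 of them among the 20 lower in HE. After median centring, which moved the median of all probe sets by 0.054 in HO against WT, 15 of 31 lay lower (48.4%, against 38.9% of all). After quantile normalization 18 did (58.1%, against 49%). With both transgenic groups pooled against WT, 22 of 31 lay lower (71%, against 52.4%), and after median centring 17 (54.8%, against 39.9%). The 22 again held all 6 probe sets of Gja1. The median spread of the 31 probe sets within a genotype was a log2 SD of 0.229, against 0.197 over all probe sets tested.

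**Figure D1:**
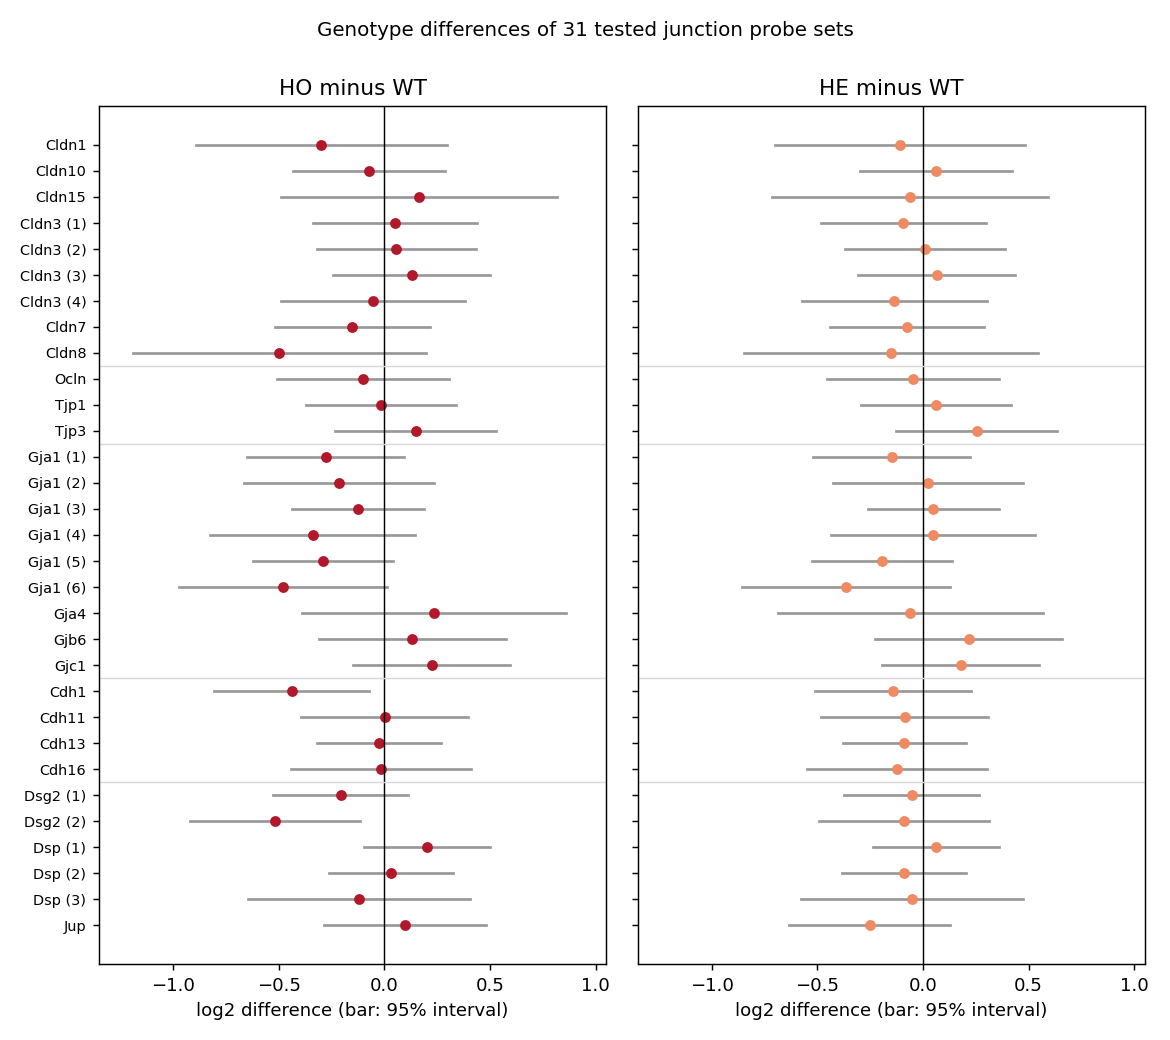
Log2 differences of HO minus WT and HE minus WT for the tested junction probe sets, with 95% confidence intervals from limma (n = 3 arrays a genotype) and genes ordered by role. Nearly all intervals cross 0. In HO minus WT those of Cdh1 (-0.81 to -0.07) and of 1 Dsg2 probe set (-0.92 to -0.12) do not.

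Among the claudins, Cldn3, a sealing claudin of lung epithelium, was read by 4 probe sets that passed the filter. The first of them read 7069.2, 7358.2 and 5855.9 in HO lungs, 7510.7, 5574.7 and 5389.4 in HE lungs, and 7863, 6238.8 and 5573.4 in WT lungs. All 3 genotypes covered the same range. The log2 difference was 0.05 ± 0.18 (SE) for HO and -0.09 ± 0.18 for HE against WT. The other 3 Cldn3 probe sets differed by between -0.05 and 0.13 in HO and between -0.14 and 0.07 in HE. Cldn7, which is found in many epithelia along the lateral membrane, read 3120.1, 2396.2 and 2878.3 in HO lungs, 3535, 2560.8 and 2791.2 in HE lungs, and 3610.4, 2862 and 2853.5 in WT lungs. The array numbered 1 was the brightest in each genotype, and the genotypes overlapped, with differences of -0.15 ± 0.17 for HO and -0.07 ± 0.17 for HE.

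Cldn8, a barrier-forming claudin best known from the kidney tubule, had the largest difference in HO among the claudin probe sets that passed the filter. It read 582.5, 321.4 and 623.8 in HO lungs, 972.3, 436 and 564.2 in HE lungs, and 897.9, 625.8 and 583.2 in WT lungs. The lowest value was that of HO array 2, and HO array 3 was brighter than WT array 3. The difference was -0.50 ± 0.32 for HO (95% interval -1.19 to 0.20, unadjusted p = 0.144 in limma) and -0.15 ± 0.32 for HE. Without HO array 2 the HO difference was -0.19. Cldn1, which seals epidermis and airway epithelium, read 586.8, 312.4 and 472.9 in HO lungs, 702.4, 392.1 and 466.3 in HE lungs, and 621.8, 622.5 and 415.7 in WT lungs. HO array 2 again had the lowest value, within overlapping genotypes, and the differences were -0.30 ± 0.27 and -0.11 ± 0.27. Further Cldn1 probe sets lay below the filter and did not share a direction. In a limma fit with no filter on dim signals they differed from WT by -0.12, 0.19 and 1.17 in HO. In HE the same probe sets differed by -0.25, 0.55 and -0.06. The unadjusted p was 0.0471 for the 1.17, from a probe set with 5 arrays at the floor, and 0.0316 for the 0.55.

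Cldn10, whose isoforms form channels for small ions between cells, read 1837, 1746.3 and 2027.8 in HO lungs, 2001.7, 2391.6 and 1800.8 in HE lungs, and 2431.7, 1718.5 and 1810.7 in WT lungs. Its genotypes overlapped, with differences of -0.07 ± 0.16 in HO and 0.06 ± 0.16 in HE. Cldn15, which forms sodium channels between cells of the small intestine, read 706.4, 612.1 and 562.4 in HO lungs, 603.2, 536.7 and 473 in HE lungs, and 947.7, 557.2 and 328.2 in WT lungs. WT held both its highest and its lowest array. The differences were 0.16 ± 0.30 in HO and -0.06 ± 0.30 in HE. Cldn4, a sealing claudin that type II cells are known to make more of after lung injury, lies beside Cldn3 on chromosome 5 and fell below the filter. It read 508.3, 303.2 and 493.3 in HO lungs, 377, 422.9 and 427.3 in HE lungs, and 599.7, 400.1 and 467.5 in WT lungs, with overlapping genotypes.

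Ocln, the membrane protein occludin of tight junction strands, read 2942.4, 4330.1 and 3716.3 in HO lungs, 3418.7, 4188.4 and 3717.4 in HE lungs, and 3682.1, 4873.1 and 3265.2 in WT lungs. The array numbered 2 was the brightest in every genotype. The differences were -0.10 ± 0.18 for HO and -0.05 ± 0.18 for HE. Tjp1, the scaffold ZO-1 that ties claudins and occludin to actin, read 10597.9, 14021.4 and 12641.6 in HO lungs, 11923.3, 16083.9 and 11524.8 in HE lungs, and 12020.4, 12072.2 and 13412.7 in WT lungs. Its genotypes overlapped (-0.02 ± 0.16 and 0.06 ± 0.16). Tjp3, the scaffold ZO-3 of epithelial tight junctions, read 521.6, 498.8 and 522.6 in HO lungs, 424.9, 605.8 and 658.6 in HE lungs, and 452.1, 539.3 and 410.1 in WT lungs. HE array 1 lay among the WT arrays, and the differences were 0.15 ± 0.17 in HO and 0.25 ± 0.17 in HE (unadjusted p = 0.171 for HE in limma). The HO difference was 0.06 without WT array 3, and the HE difference ran from 0.13 without HE array 3 to 0.45 without HE array 1.

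Among the connexins, Gja1 encodes connexin 43, the connexin of many lung cells including the alveolar epithelium, fibroblasts and smooth muscle. It was read by 6 probe sets that passed the filter, and all 6 had a lower mean in HO than in WT lungs, by between -0.12 and -0.48 on the log2 scale (median -0.28). None of the 6 had an unadjusted p under 0.05 in limma without the replicate block, and the genotypes overlapped in each. The 6 probe sets read the same transcript on the same arrays and are not independent. The count was 6 of 6 in HO under median centring, under quantile normalization and without each array in turn. In HE, 3 of the 6 were lower than in WT, by up to -0.36, and the other 3 were higher by up to 0.05.

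The brightest Gja1 probe set read 6150.8, 4114.1 and 4374 in HO lungs, 5641, 4890.3 and 5251.8 in HE lungs, and 6006.8, 6493.6 and 5058.2 in WT lungs. HO arrays 2 and 3 were the lowest of all 9, while HO array 1 lay among the WT arrays. The difference was -0.28 ± 0.17 for HO (unadjusted p = 0.129 in limma). The probe set with the largest difference read 766, 527.9 and 840.9 in HO lungs, 647.8, 761.3 and 878.1 in HE lungs, and 716.2, 1150.4 and 1120.4 in WT lungs. Both transgenic groups lay below WT arrays 2 and 3, and WT array 1 lay among them. The differences were -0.48 ± 0.22 in HO (unadjusted p = 0.0549 in limma, 0.041 with the replicate block) and -0.36 ± 0.22 in HE (unadjusted p = 0.132). The HO difference was -0.28 without HO array 2, and without WT array 1 it was -0.70, with -0.59 in HE. Summed smooth muscle markers ran from 16925 to 18492 in HO, from 18839 to 22859 in HE and from 15628 to 25686 in WT lungs, and their part in the Gja1 values was not tested.

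**Figure D2:**
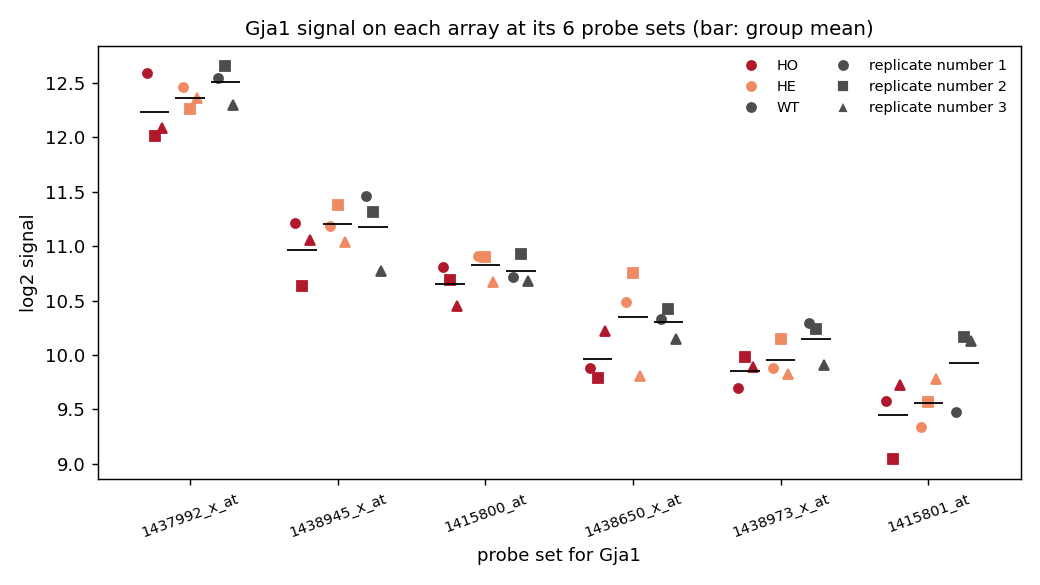
Signal intensity (log axis) of the 6 tested Gja1 probe sets on the 9 arrays, with HO left of HE and WT. The HO mean lies below the WT mean in all 6, and the arrays of the genotypes overlap in each.

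Gja4, connexin 37 of arterial endothelium, read 1957.4, 5147.3 and 3219.2 in HO lungs, 2737.3, 2665.1 and 2414.1 in HE lungs, and 2806.2, 2183.6 and 3248 in WT lungs. HO held both the lowest and the highest array. The difference was 0.23 ± 0.28 in HO, but -0.11 without HO array 2, and -0.06 ± 0.28 in HE. Gjc1, connexin 45 of smooth and cardiac muscle, read 1177.8, 1591.3 and 1416.5 in HO lungs, 1136.3, 1308.9 and 1626.7 in HE lungs, and 1042.1, 1279.8 and 1248.3 in WT lungs. It lay highest in HO arrays 2 and 3 and HE array 3, with differences of 0.22 ± 0.17 in HO (unadjusted p = 0.212 in limma) and 0.18 ± 0.17 in HE. Without HO array 2 the HO difference was 0.12, and without HE array 3 the HE difference was 0.04. Gjb6, connexin 30, which lies beside Gjb2 on chromosome 14, read 561.6, 458.6 and 493.4 in HO lungs, 504.5, 612.4 and 491.4 in HE lungs, and 561.7, 530.1 and 324.1 in WT lungs. Only WT array 3 stood apart, below all others, and the differences were 0.13 ± 0.20 and 0.22 ± 0.20.

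Below the filter, Gjb2, connexin 26, read 461.8, 447.7 and 423.1 in HO lungs, 549.1, 284.8 and 360.5 in HE lungs, and 625.3, 294.5 and 535.8 in WT lungs. The HO arrays lay inside the range of the WT arrays. Gja5, connexin 40 of arterial endothelium and of the atria, read 32.6, 21.1 and 34.6 in HO lungs, 29.6, 34.3 and 38.7 in HE lungs, and 50.1, 56.4 and 48.2 in WT lungs. All 6 transgenic arrays lay below all 3 WT arrays, at signals close to the floor of 25.5, with HO array 2 under it. Of the probe sets that passed the filter, 2.08% had both transgenic groups apart from WT in either direction. The share among dim probe sets was not counted. In a limma fit with no filter on dim signals, the Gja5 difference was -0.75 ± 0.15 in HO (unadjusted p = 0.00144, adjusted p = 0.87) and by -0.60 ± 0.15 in HE (unadjusted p = 0.00496, adjusted p = 0.988). That fit covered 22626 probe sets, and in it 6 of the 78 junction probe sets had an unadjusted p under 0.05 in HO against WT, beside 5.41% of all. Of these, Cldn9 (1.47) and 1 probe set of Cldn1 (1.17) were higher in HO. Those of Gja5, Cdh1, Dsg2 and Cdh4 were lower. In HE against WT the count was 4 of 78, beside 4.38% of all.

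Cdh1 encodes E-cadherin, the cadherin of epithelial adherens junctions. Its probe set read 3089.4, 3636.5 and 4073.6 in HO lungs, 4694.2, 3723 and 4875 in HE lungs, and 4590.3, 5801.5 and 4282.9 in WT lungs. All 3 HO arrays lay below all 3 WT arrays, while the HE arrays lay among both. HO was 0.738 times WT, a log2 difference of -0.44 ± 0.17 (95% interval -0.81 to -0.07, unadjusted p = 0.0236, adjusted p = 0.992 in limma). HE differed from WT by -0.14 ± 0.17 (unadjusted p = 0.42) and HO from HE by -0.30 (unadjusted p = 0.102). Within the replicate numbers 1, 2 and 3, the HO arrays differed from the WT array of the same number by -0.57, -0.67 and -0.07. Without WT array 2, the brightest, the HO difference was -0.31 (unadjusted p = 0.104), and without HO array 1 it was -0.33 (unadjusted p = 0.0958).

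Cdh1 was the only probe set of the 31 whose HO and WT arrays did not overlap, beside 8.88% of all probe sets tested. In HE against WT 0 of 31 lay apart in this way, beside 7.7% of all, and with both transgenic groups against WT 0 of 31, beside 2.08%. Summed intensities of the 7 epithelial markers, a list that includes Cdh1, ran from 29030 to 33936 in HO, from 26412 to 33391 in HE and from 29716 to 34846 in WT lungs. Those of 10 genes of basal and squamous epithelium, at low signal, ran from 1790 to 1889 in HO, from 2011 to 2348 in HE and from 2237 to 2645 in WT lungs. Only 2 of the 10, Lor and Sprr1a, had a tested probe set, and both were lower in HO, as given further below. The sum therefore does not show a drop shared by all 10 genes. In bulk tissue, fewer cells of a type and less RNA per cell cannot be told apart, and the part of these cell types in the Cdh1 values was not tested.

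The other 3 cadherins that passed the filter are known mainly outside the epithelium or the lung. Cdh11, a cadherin of fibroblasts and other mesenchymal cells, read 4662.4, 5197.3 and 5151.3 in HO lungs, 6250, 4149.8 and 3995.3 in HE lungs, and 5570.7, 4313.6 and 5167.9 in WT lungs. The HO arrays lay within the range of the others, and the differences were 0.00 ± 0.18 in HO and -0.09 ± 0.18 in HE. Cdh13, T-cadherin, a receptor for adiponectin on vascular cells that has no cytoplasmic part, read 1053.3, 1273.4 and 968 in HO lungs, 1058, 980.9 and 1099.1 in HE lungs, and 1075.4, 1114.5 and 1142.3 in WT lungs. Its differences were -0.03 ± 0.13 and -0.09 ± 0.13, within overlapping genotypes. Cdh16, best known from kidney epithelium, read 1239.8, 1288.6 and 798.9 in HO lungs, 1099.6, 895.4 and 1044.6 in HE lungs, and 1292.4, 1060.5 and 964.5 in WT lungs. HO array 3 was the lowest of the 9, and the differences were -0.02 ± 0.19 and -0.12 ± 0.19. Cdh2, N-cadherin of mesenchymal, neural and cardiac cells, fell below the filter with both of its probe sets. The brighter read from 250.3 to 353.3 in HO, from 268.5 to 327.3 in HE and from 284.9 to 368 in WT lungs. The dimmer read from 155.5 to 254.8 in HO, from 162.3 to 244.1 in HE and from 139.8 to 213.9 in WT lungs.

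In the desmosome, Dsg2 encodes desmoglein 2, the desmoglein of simple epithelia and heart. Its dimmer tested probe set, the one with the larger difference, read 557, 492.9 and 629 in HO lungs, 840.2, 689.3 and 726.8 in HE lungs, and 795.1, 1026.5 and 622.1 in WT lungs. All HO arrays lay below all HE arrays, and HO array 3 was just brighter than WT array 3. HO was 0.698 times WT, a log2 difference of -0.52 ± 0.18 (95% interval -0.92 to -0.12, unadjusted p = 0.0162, adjusted p = 0.992 in limma). Within replicate numbers 1, 2 and 3 the difference was -0.51, -1.06 and 0.02. Without WT array 2 it was -0.34 (unadjusted p = 0.0783), without HO array 2 it was -0.43 (unadjusted p = 0.0624), and without WT array 3 it was -0.70.

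Set against HE, the HO difference of this Dsg2 probe set was -0.43 (95% interval -0.83 to -0.03, unadjusted p = 0.0391 in limma), and it was the only one of the 31 without overlap between HO and HE arrays, beside 6.66% of all. This p was 0.053 with the replicate block, 0.128 without HO array 2 and 0.125 without HE array 1. HE differed from WT by -0.09 ± 0.18. The brighter tested Dsg2 probe set read 703.5, 740.2 and 688.8 in HO lungs, 907.7, 748.1 and 726.8 in HE lungs, and 966.1, 789 and 722.6 in WT lungs. HO array 2 overlapped the other genotypes, and the HO difference was -0.21 ± 0.15 (unadjusted p = 0.184 in limma). A further 4 Dsg2 probe sets lay below the filter and did not share a direction. In the limma fit with no filter they differed from WT by -0.22, -0.23, 0.05 and 0.38 in HO. In HE the same probe sets differed by -0.36, -0.34, -0.10 and 0.47.

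Jup, plakoglobin, which links cadherins to the cytoskeleton in desmosomes and adherens junctions, read 5665.4, 7004.9 and 5664.1 in HO lungs, 4538.6, 4039.5 and 5930.7 in HE lungs, and 6570.9, 4901.3 and 5709.8 in WT lungs. HE arrays 1 and 2 were the lowest of the 9. The Jup difference was 0.10 ± 0.17 for HO and -0.25 ± 0.17 for HE against WT (unadjusted p = 0.175 for HE in limma), and by 0.35 between HO and HE (95% interval -0.03 to 0.73, unadjusted p = 0.0702). The HE difference from WT ran from -0.41 without HE array 3 to -0.13 without HE array 2. Dsp, desmoplakin, which ties desmosomes to keratin, was read by 3 tested probe sets. The brightest read 2809.5, 3006 and 2775 in HO lungs, 2976.1, 2470.1 and 2383.2 in HE lungs, and 2440, 2266.2 and 2785.9 in WT lungs. HO array 3 was just below WT array 3, and the difference was 0.20 ± 0.14 in HO (unadjusted p = 0.165 in limma) and 0.06 ± 0.14 in HE. The other Dsp probe sets differed by 0.03 and -0.12 in HO, so the 3 did not share a direction.

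Plaque, scaffold and regulatory genes that work with these junction proteins were taken from a separate list of 79 genes, of which 47 had a tested probe set (81 in all). None passed an adjusted p of 0.05 in limma. In HO against WT 1 of 81 had an unadjusted p under 0.05, in HE against WT 1, and between HO and HE 2, beside the 4.49%, 3.11% and 2.56% of all probe sets given above. Nectin3, an immunoglobulin-like adhesion protein of adherens junctions, had 1 probe set lower in HO by -0.39 ± 0.13 (unadjusted p = 0.0139 in limma), while its other probe sets differed by 0.00, 0.07 and 0.43. Ctnnal1, alpha-catulin, differed by -0.57 ± 0.23 in HE (unadjusted p = 0.0292), and Magi3, a scaffold of tight junctions, by -0.56 ± 0.19 between HO and HE (unadjusted p = 0.0137). Among regulators of cadherin genes, the repressor Zeb2 differed by 0.23 ± 0.15 in HO and 0.30 ± 0.15 in HE, neither at an unadjusted p under 0.05. The 2 tested probe sets of the epithelial activator Grhl2 went opposite ways, at -0.25 ± 0.17 and 0.11 ± 0.14 in HO and at -0.27 ± 0.17 and 0.25 ± 0.14 in HE.

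Arrays also carry a replicate number, and each number holds 1 array of each genotype. What a number stands for is not given in the labels. In a limma fit of genotype and number, 8 of the 31 junction probe sets had an unadjusted p under 0.05 for the number, against 12% of all probe sets, and 0 passed an adjusted p of 0.05 (lowest 0.33), where 0.0147% of all did. Of the 8, 6 were claudin probe sets. All 9 claudin probe sets had their highest mean on the arrays numbered 1, against 35% of all probe sets, and 6 of the 9 had an unadjusted p under 0.05, where 4.19% of all had such a p with number 1 highest. By gene, taking 1 probe set for each, 6 of 6 claudin genes were highest in number 1, against 38% of all genes, and 5 of 6 had an unadjusted p under 0.05, against 9.95%. The 6 of 9 rested on several arrays, with 2 of 8 claudin probe sets at such a p without HE array 1, 2 of 9 without WT array 1, 3 without HO array 2 or WT array 3, and 4 or more without any other single array. These counts were chosen after the values were seen.

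Cldn8 had the lowest p for the number, with mean log2 intensities of 9.64, 8.80 and 9.20 in numbers 1, 2 and 3 (unadjusted p = 0.00833, adjusted p = 0.33 in limma). Cldn7 averaged 11.74, 11.34 and 11.47 (unadjusted p = 0.023) and Cldn15 9.53, 9.15 and 8.79 (unadjusted p = 0.0245). Across the list, the median deviation of the claudin probe sets from their genotype means was 0.22 in number 1, -0.16 in number 2 and -0.07 in number 3. Array by array, and relative to the mean of all 9 arrays, number 1 stood at 0.14 in HO, 0.22 in HE and 0.30 in WT, and number 2 was below 0 in each genotype. Cldn10, with an unadjusted p of 0.682, was the claudin gene without such a p.

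Ocln ran differently, with means of 11.70, 12.12 and 11.80 in numbers 1, 2 and 3 (unadjusted p = 0.0307, adjusted p = 0.369 in limma). Ocln, Tjp1 and Tjp3 all had their highest mean in number 2, beside 31.3% of all probe sets. Among the connexins, Gjc1 was lowest in number 1, at 10.13 against 10.44 and 10.47 in numbers 2 and 3 (unadjusted p = 0.0458). Neither Cdh1 (unadjusted p = 0.794) nor any desmosome probe set had an unadjusted p under 0.05 for the number. In the list of junction partners, 28 of 81 probe sets were highest in number 1, close to the share over all probe sets.

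Summed markers of some cell types also differed between the replicate numbers, and lists that stood high in number 1 are given here. The sums for alveolar type I and II, endothelial, smooth muscle, basal and squamous, and T and B cells overlapped between the numbers. Macrophage sums were lower in number 3 than in numbers 1 and 2. All 5 tested neutrophil probe sets had their highest mean in number 2. Summed ciliated markers ran from 24968 to 26301 in number 1, from 19500 to 21493 in number 2 and from 21692 to 21906 in number 3. Summed epithelial markers ran from 33391 to 34846, from 26412 to 32039 and from 29030 to 32006 in the same order. Cardiac muscle markers ran from 28939 to 45088 in number 1, against 25338 to 31523 in number 2 and 25882 to 32481 in number 3. In number 1 they were high in HO (45088) and HE (43768) only, and WT array 1 (28939) was the lowest WT array. Adipocyte markers ran from 3549 to 4818 in number 1, against 1664 to 2957 in number 2 and 3441 to 3500 in number 3, and 1 of their 4 tested probe sets, 1 of Fabp4, passed the adjusted threshold for the number (adjusted p = 0.0456 in limma). Mesothelial markers ran from 4464 to 6415 in number 1, against 2623 to 3675 in number 2 and 1725 to 4747 in number 3, so numbers 1 and 3 overlapped. Upk3b, a gene of the mesothelium that lines the lung, read 3761.7, 1548.5 and 3514.5 in HO lungs, 3024.1, 2565.9 and 1766.9 in HE lungs, and 4643.8, 2457.2 and 1138.7 in WT lungs. The part of these cell types in the claudin values was not tested.

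The junction genes that the symbol rule left out had no unadjusted p under 0.05 between genotypes in limma. Cldn5, the claudin of endothelium, differed by 0.10 ± 0.15 in HO and 0.14 ± 0.15 in HE against WT. Cldn18, the claudin of alveolar epithelium, differed by 0.07 ± 0.13 in HO for one probe set and by -0.17 ± 0.16 for the other. Cdh5, VE-cadherin of endothelium, differed by -0.04 ± 0.17 and -0.12 ± 0.22 in HO for its 2 probe sets.

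The 32 genes without a tested probe set were read only by dim probe sets, which does not show that lung cells lack them. The dim claudins were Cldn2, Cldn4, Cldn6, Cldn9, Cldn11, Cldn13, Cldn14, Cldn16, Cldn19 and Cldn23, with intensities from 11.6 to 599.7. The dim connexins were Gja3, Gja5, Gja10, Gjb1, Gjb2, Gjb5 and Gjc3, from 12.1 to 625.3. The dim cadherins were Cdh2, Cdh3, Cdh4, Cdh6, Cdh8, Cdh9, Cdh10, Cdh15, Cdh17, Cdh20, Cdh22 and Cdh23, from 2.2 to 662.7. The desmocollins Dsc1, Dsc2 and Dsc3, which pair with desmogleins, read from 6.5 to 331.1. Among them, Cdh3, P-cadherin of basal epithelial cells, read 307.7, 91.9 and 94.7 in HO lungs, from 84.8 to 105.4 in HE lungs and from 105.6 to 140.8 in WT lungs, so HO array 1 alone was high. Several of the 52 genes are chromosome neighbours, with 12 pairs that have no coding gene between them, such as Cldn3 with Cldn4, Cdh1 with Cdh3 and Gjb2 with Gjb6.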

How the data were processed

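RNA of 9 lung samples was hybridised to 430A expression arrays, 3 each for HO, HE and WT, as grouped by the array titles. The deposited values are signal intensity per probe set, on a linear scale, which the authors had scaled to a trimmed mean of 1500 on each array (found from the values, leaving out the top and bottom 2 percent). The software that made them was not given in the labels or the files. Gene symbols came from the platform annotation, in which 20380 probe sets have 1 symbol, 691 several and 1555 none, and all 52 genes matched RefSeq by gene identifier.

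Of 22690 probe sets, 64 controls were left out. Intensities were floored at 25.5 (the 5th percentile), log2 was taken of the deposited values, and probe sets with a mean under the 40th percentile were dropped. One limma fit (R 4.3.3, limma 3.58.1, 6 residual degrees of freedom) gave group differences, 95% intervals and p-values with Benjamini-Hochberg adjustment over 13576 probe sets, and was tested on simulated data. Errors are SEs of this fit. Arrays with the same number deviated together for HO and WT, with r of 0.19, 0.14 and 0.28 across probe sets in numbers 1, 2 and 3. For HE and WT, r was 0.30 in number 1 but 0.05 and 0.04 in numbers 2 and 3. For HO and HE it was 0.16, 0.15 and 0.03. The pairing was thus less even for HE. The replicate block and the test for the number nevertheless covered the arrays of all genotypes, HE included.

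The genes, lists, rules and tests were chosen with earlier results of these data known. Named were the 4 genes of lowest p in each direction and comparison, the 6 of lowest p for the replicate number, and a list of well-known junction genes. Partners were named by lowest p, up to 2 per list. Alternatives covered the scaling, floor, filter, moderation, replicate block, HO array 2 counted as HE, and each array left out.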

Additional observations from a re-analysis of the deposited data

How the results depend on the processing

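The count of junction probe sets past an adjusted p of 0.05 was 0 in every comparison under all alternatives run, and 438 alternative values of the named genes kept their direction while 9 turned. Many of the 438 could not turn. The filter, the moderation and the replicate block leave a log2 difference unchanged, and so does leaving out an array of a genotype not compared. The lowest adjusted p reached was 0.654 for HO against WT and 0.268 for the replicate number. In HO against WT the count at an unadjusted p under 0.05 ran from 0 (without WT array 2) to 4 (without WT array 1) with 1 array left out, was 4 with the replicate block, which pairs HO and WT, and was 6 of 78 with no filter. The block changed no call at the adjusted threshold. Counting HO array 2 as HE turned Gja4 to -0.11 (HO against WT) and -0.30 (HO against HE), and Cldn8 to 0.20 (HO against HE). With each array left out in turn, Gja4 ran from -0.11 to 0.59 for HO against WT and from -0.052 to 0.65 for HO against HE, both turning without HO array 2. Likewise, in HE against WT, the brightest Dsp probe set ran from -0.036 to 0.14, 1 Cldn3 probe set from -0.27 to 0.024 and Gjb6 from -0.033 to 0.36. These reversals were of values not past any threshold. The claudin counts by replicate number, chosen after seeing the data, moved more. With the filter at the 60th percentile 3 of 6 claudin probe sets had an unadjusted p under 0.05, and with no filter 5 of 23 had such a p and 18 of 23 were highest in number 1. With 1 array left out, the number at that p ran from 2 (without HE array 1 or WT array 1) to 6, and the number highest in number 1 from 7 to 9. The cause was not tested. Dim signal limits what can be read of the 32 untested genes.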

Other observations

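Of 10 marker genes of basal and squamous epithelium, 2 had a tested probe set, and neither passed an adjusted p of 0.05 between genotypes in limma. Lor, the cornified envelope protein loricrin, read 554.6, 311.9 and 684.8 in HO lungs, 724.5, 607.2 and 845.2 in HE lungs, and 947.3, 912.7 and 744.2 in WT lungs. Sprr1a, another cornified envelope protein, read 377.7, 420.4 and 460.7 in HO lungs, 449.8, 468.9 and 506.5 in HE lungs, and 596.4, 656.2 and 540.8 in WT lungs. All HO arrays lay below all WT arrays for both genes, beside 8.88% of all probe sets whose HO and WT arrays did not overlap. The log2 differences of HO against WT were -0.81 and -0.51, with a lowest adjusted p of 0.992 in limma.

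Of the marker lists, that of neutrophils varied most between arrays of a genotype. Their summed intensities ran from 9475 to 26570 in HO, from 11858 to 65342 in HE and from 10766 to 49511 in WT lungs, and the median log2 SD within a genotype was 0.986 over 5 probe sets, against 0.229 for the junction probe sets.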
